A study of Mus musculus with 8 samples.

Results

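The adult globin genes of the mouse, Hba-a1, Hba-a2, Hbb-bs and Hbb-bt, were followed in single-cell RNA sequencing of bone marrow progenitors from mice of 4 ages. Members were listed by name, with earlier results of these data known. The list held 5 genes, these 4 globins and Ahsp, and 4 of the 5 were matched by symbol among the 32285 genes of the files, while Ahsp, the chaperone of free alpha globin, was not analysed here. The samples were 8 wild-type mice with 1 library each: 1 male and 1 female at 14 weeks (young), at 50 weeks (middle-aged), at 78 (male) or 79 (female) weeks (old) and at 95 weeks (very old). Bone marrow was gated on c-Kit and on the absence of lineage markers before droplet capture. That gate keeps stem and progenitor cells and limits maturing red cell precursors, so every level and share below belongs to cells that passed it. The questions were how alpha and beta RNA are balanced in erythroid cells, where along maturation each gene rises, how much globin RNA is found in other lineages, and whether these differ with age.

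Haemoglobin is a tetramer of alpha and beta chains, each holding a heme. The alpha and beta genes lie in separate clusters and are switched on together during erythroid maturation by factors that include GATA1 and KLF1. Chains made in excess of their partner are unstable and harm the cell, which is why the balance of alpha to beta is followed in red cell biology. Globin RNA is so abundant in late erythroblasts and reticulocytes that RNA freed from broken cells is a common background in droplet libraries of marrow.

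Hba-a1 (ENSMUSG00000069919) spans chr11:32283511-32284465 on the plus strand and Hba-a2 (ENSMUSG00000069917) lies downstream of it at chr11:32296489-32297298 (GRCm38, GENCODE vM21). Hbb-bs (ENSMUSG00000052305) spans chr7:103826534-103828096 on the minus strand, and Hbb-bt (ENSMUSG00000073940) lies at chr7:103812524-103813996 on the same strand. The 120 bases before each RefSeq transcription start (GRCm38.p6) are shown because the genes of a pair share most of these bases, while the counts of Hbb-bs and Hbb-bt parted in HSC-like cells, as described further on. Capitals mark CCAAT as well as CACCC and ATATAA, the last being a form of the TATA box, on either strand, and each sequence reads 5′ to 3′ in the direction of transcription.
Hba-a1, chr11:32283552-32283671: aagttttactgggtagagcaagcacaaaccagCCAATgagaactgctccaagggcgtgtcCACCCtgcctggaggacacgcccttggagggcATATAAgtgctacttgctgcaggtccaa
Hba-a2, chr11:32296372-32296491: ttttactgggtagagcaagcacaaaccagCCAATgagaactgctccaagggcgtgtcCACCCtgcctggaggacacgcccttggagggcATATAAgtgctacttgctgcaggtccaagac
Hbb-bs, chr7:103827929-103828048: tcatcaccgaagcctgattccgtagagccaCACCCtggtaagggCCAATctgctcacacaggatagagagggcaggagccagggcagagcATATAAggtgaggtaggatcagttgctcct
Hbb-bt, chr7:103813924-103814043: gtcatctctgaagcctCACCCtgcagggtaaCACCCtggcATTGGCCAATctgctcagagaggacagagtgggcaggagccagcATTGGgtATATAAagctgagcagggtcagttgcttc
All 3 motifs were found in each of the 4 windows, against 0.286% of the 32851 RefSeq windows of this length that held them together. Taken alone, CCAAT was in 21.3% of windows, CACCC in 31.7% and ATATAA in 4.47%. AGATAA, the motif of GATA factors, also searched on both strands, was in 4.36% of all windows and in 0 of these 4, which says only that these letters are not in these 120 bases. The Hbb-bt window held 2 CACCC where the others held 1, and its capitals also hold 2 CCAAT on the opposite strand. The Hba-a1 and Hba-a2 windows were identical at 117 of 123 alignment columns (95.1%). The other columns are the unmatched ends of windows that are offset, so the stretch present in both was the same. Those of Hbb-bs and Hbb-bt were identical at 75.2%. The Hba-a1 and Hbb-bs windows lie inside the GENCODE spans given above, as those spans begin before the RefSeq start.

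The copies of a pair also resemble each other where the reads of this 3′ assay fall. Over the last 300 bases of the transcript, Hba-a1 and Hba-a2 were identical at 89.6% of alignment columns and Hbb-bs and Hbb-bt at 86.4%. A window of 90 bases from that stretch was found unchanged in the partner for 57.3% of windows of Hba-a1, 49.8% of Hba-a2, 24.6% of Hbb-bs and 24.2% of Hbb-bt. Reads inside such windows cannot be given to 1 copy, so the split within a pair is uncertain, and sums of both alpha and of both beta genes are given beside it. Reads left uncounted for that reason would be missing from these sums too, and shared windows were more frequent in the alpha than in the beta genes. How far this moves the alpha to beta ratio was not tested, so a ratio of 1 need not mean equal RNA. A unique molecular identifier (UMI) counts 1 captured RNA molecule whatever its length, and levels are UMIs per 10000 non-globin UMIs unless stated.

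Libraries held 83062003 to 150135029 UMIs, and 59136 cells were kept. Of the distinct cell barcodes, 462 (0.787%) occurred in 2 or more libraries. Cells were clustered and named by marker genes, which gave 12717 erythroid-like cells, 7027 HSC-like cells (haematopoietic stem cells), 8702 granulocyte progenitor-like cells and smaller classes, with 16949 cells left unnamed. The 20 erythroid markers, which hold no globin, summed to 69.4 to 105 UMIs per 10000 in the erythroid-like cells of each mouse. Late erythroblast genes were close to 0 even in the most mature decile of these cells, at 0.0211 for Alas2, which starts heme synthesis in erythroid cells, and 0.0139 for Slc4a1, the band 3 anion exchanger. The very old libraries carry names of another library series than the rest, so the age of those mice cannot be told apart from the library series. Each age and sex was 1 mouse, so p-values measure the spread between these mice.

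In erythroid-like cells the globin level divided the mice into 3 high and 5 low ones, and this division did not follow age. Hba-a1 stood at 0.215 in the young male and 1.51 in the young female, 0.1004 and 0.241 in the middle-aged male and female, 0.0902 and 0.156 in the old male and female, and 1.32 and 1.35 in the very old male and female. Hba-a2, in the same order, stood at 0.0544 and 0.420, 0.0143 and 0.0588, 0.0187 and 0.0444, and 0.399 and 0.401. The young female and both very old mice were high for both alpha genes, so the young group spanned nearly the whole range. Hbb-bs stood at 0.0859 and 0.684 in the young, 0.0378 and 0.0851 in the middle-aged, 0.0398 and 0.142 in the old, and 1.35 and 0.949 in the very old male and female. Hbb-bt stood at 0.132 and 0.797 in the young, 0.0626 and 0.203 in the middle-aged, 0.147 and 0.127 in the old, and 1.10 and 1.04 in the very old male and female. The same 3 mice were high for both beta genes. Summed over the 4 genes, the high mice held 3.42 (young female), 4.17 (very old male) and 3.74 (very old female), and the low mice 0.215 to 0.589. Of 4 marker lists of other cells, 2 moved along with this division: 8 T and NK cell genes summed to 0.222 to 0.310 in the erythroid-like cells of the high mice and 0.598 to 0.942 in those of the low mice, and 10 B lymphoid genes to 0.0297 to 0.0464 and 0.0604 to 0.0789. The HSC and granulocyte progenitor lists did not, as the young female (0.783 and 9.43) lay within the low mice (0.768 to 0.832 and 7.85 to 10.8). The very old male (0.999 and 5.60) and very old female (0.892 and 7.81) lay outside the low mice on both lists. The high mice also had the larger share of erythroid-like cells (27.3% to 31.1% of cells, against 13.8% to 19.8%) and the libraries with the most UMIs in all (124368454 to 150135029 UMIs, against 83062003 to 110408950). Median UMIs per cell did not divide the mice alike, as the very old female (11900) lay below the middle-aged female (12449). The part of the marker lists, the erythroid-like share and the library totals in the result was not tested.

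**Figure D1:**
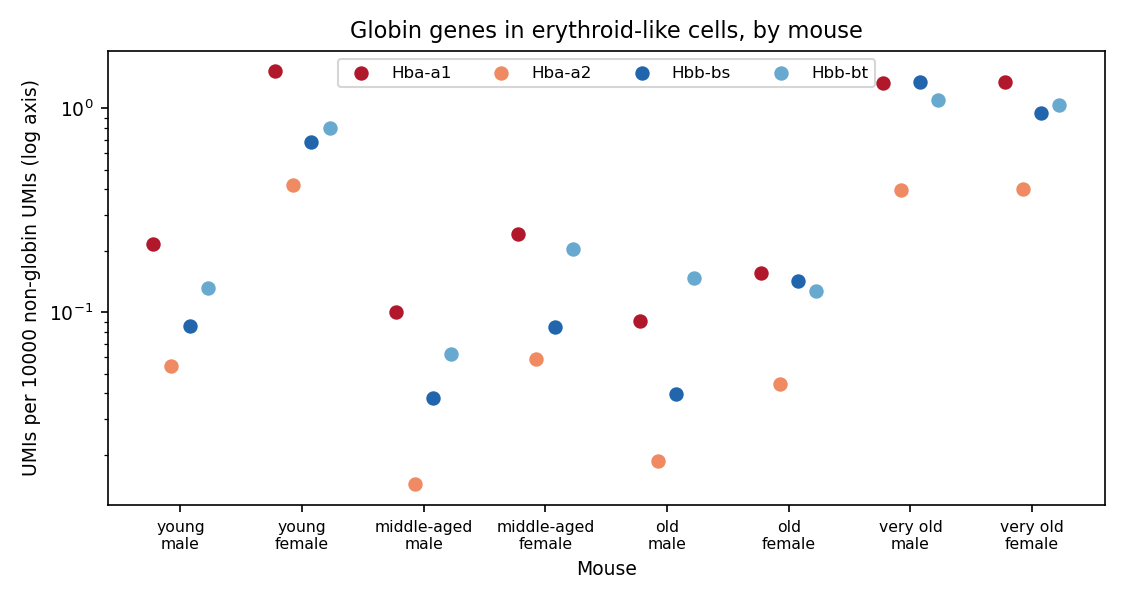
Level of each globin gene in erythroid-like cells, 1 point per gene and mouse, on a log axis of UMIs per 10000 non-globin UMIs. The young female and both very old mice lie above the other 5 mice for every gene, and Hba-a2 is the lowest of the 4 genes in each mouse.

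Most erythroid-like cells carried no globin UMI in the low mice. The share with none was 37.4% in the young female, 39.8% in the very old male and 44.6% in the very old female, and lay between 70.9% and 82.97% in the other 5 mice. The RNA was concentrated in few cells, as the richest 10% of erythroid-like cells held 65.5% to 90.9% of the globin UMIs of a mouse. Cells with 50 or more globin UMIs numbered 124 in the young female, 169 in the very old male and 101 in the very old female, against 0 to 6 in each of the other mice. The richest erythroid-like cell held 478.

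Among the alpha genes Hba-a1 held 76.8% to 87.5% of UMIs. Among the beta genes the split varied more between mice, with Hbb-bs holding 39.4% and 46.2% of beta UMIs in the young male and female, 37.6% and 29.5% in the middle-aged, 21.3% and 52.7% in the old, and 55.1% and 47.7% in the very old. The old male and old female lay near opposite ends of this range.

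No globin gene was called between older mice (old and very old, n = 4) and young mice (n = 2) in erythroid-like cells by the edgeR quasi-likelihood test at an adjusted p under 0.05. That test called 0.00794% of the 12588 genes tested. Of the members, 0 of 4 were called and 0 of 4 had an unadjusted p under 0.05, beside 680 of all genes. DESeq2 called 0 of 4, beside 10 genes. The estimated differences (log2, older minus young) were -0.69 ± 0.44 (SE) for Hba-a1, -0.68 ± 0.49 for Hba-a2, 0.13 ± 0.55 for Hbb-bs and 0.08 ± 0.49 for Hbb-bt. Averaging old and very old mice joined values on opposite sides of the young: over the 4 genes the estimates were -2.73 to -1.48 for the old mice alone (n = 2) and 1.18 to 2.24 for the very old alone (n = 2). For the old mice 0 of 4 members were called by edgeR or DESeq2 and 4 of 4 had an unadjusted p under 0.05, beside 0% of genes called by edgeR, 1471 genes at an unadjusted p under 0.05 and 145 called by DESeq2. For the very old mice the same counts of members held, beside 0.342% of genes called by edgeR, 2519 genes at an unadjusted p under 0.05 and 318 called by DESeq2.

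Within 1 sex the very old mice stood differently against the young. The summed level was 8.56-fold that of the young in the males and 1.09-fold in the females, each from 1 mouse per age with no test. For the old mice it was 0.607-fold in males and 0.137-fold in females, and for the middle-aged 0.441-fold and 0.172-fold.

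Of the age comparisons over all erythroid-like cells, that of middle-aged with young mice (n = 2 each) gave the lowest adjusted p by edgeR. Differences (log2, middle-aged minus young) were -2.18 ± 0.53 (SE) for Hba-a1, -2.57 ± 0.61 for Hba-a2, -2.49 ± 0.71 for Hbb-bs and -1.74 ± 0.58 for Hbb-bt. The edgeR test called 0 of 4, with adjusted p-values of 0.0989 to 0.184, and 0% of all genes. Of the members 4 of 4 had an unadjusted p under 0.05, as had 2113 genes, and DESeq2 called 0 of 4 members, with a lowest adjusted p of 0.0611, and 325 genes. Leaving out the young female took the 4 estimates to between -0.94 and -0.19, and leaving out the young male took them to between -3.35 and -2.51.

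The latest erythroid-like cluster alone, tested after the values were seen, held 91.8% of erythroid-like globin UMIs. There edgeR called Hba-a1 and Hba-a2 lower in middle-aged than in young mice, at -1.85 ± 0.42 (log2, SE, adjusted p = 0.0374) and -2.29 ± 0.52 (adjusted p = 0.0351), beside 3.39% of genes called. It also called them lower in old mice, at -2.37 ± 0.44 (adjusted p = 0.0196) and -2.64 ± 0.55 (adjusted p = 0.0285), beside 2.72% of genes. In very old mice it called Hbb-bs higher, at 2.31 ± 0.56 (adjusted p = 0.0461), beside 3.66% of genes. DESeq2 called 0, 1 and 0 members in these 3 comparisons, beside 282, 273 and 289 genes. Without the sex term edgeR called 0 members in each of them, beside 2, 1 and 71 genes. The calls for middle-aged mice were also lost, with 0 members called, without the young female (10 genes called), without either middle-aged mouse (0 genes) and without either old mouse (430 genes without the male and 456 without the female).

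Globin was higher in the most mature than in the least mature decile of erythroid-like cells in each of the 8 mice. Cells were ordered by a score of 20 late and 17 early erythroid genes without any globin, in cells thinned to 2000 non-globin UMIs, and cut into deciles with every mouse weighted alike. Over all mice the summed level was 0.114 in the least mature decile, 0.403 in the fifth, 0.864 in the sixth, 2.49 in the eighth and 7.99 in the most mature. That last decile held 47.1% of the scored Hba-a1 UMIs, 46.4% of Hba-a2, 53.2% of Hbb-bs and 49.1% of Hbb-bt. With cells thinned alike, the share with a globin UMI was 2.01% in the least mature and 48.8% in the most mature decile.

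Onset, taken as the earliest decile where a gene reached 10% of its highest level, was the sixth for Hba-a1, Hba-a2 and Hbb-bt and the seventh for Hbb-bs over all mice. In both very old mice Hba-a1 and Hba-a2 reached it in the sixth decile and Hbb-bs in the seventh, while Hbb-bt reached it in the sixth in the male and in the fifth, before the alpha genes, in the female. In the young female Hba-a1 reached it in the fourth decile, Hba-a2 in the third and both beta genes in the sixth. In the other 5 mice, with fewer UMIs, it lay anywhere from the first to the seventh.

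**Figure D2:**
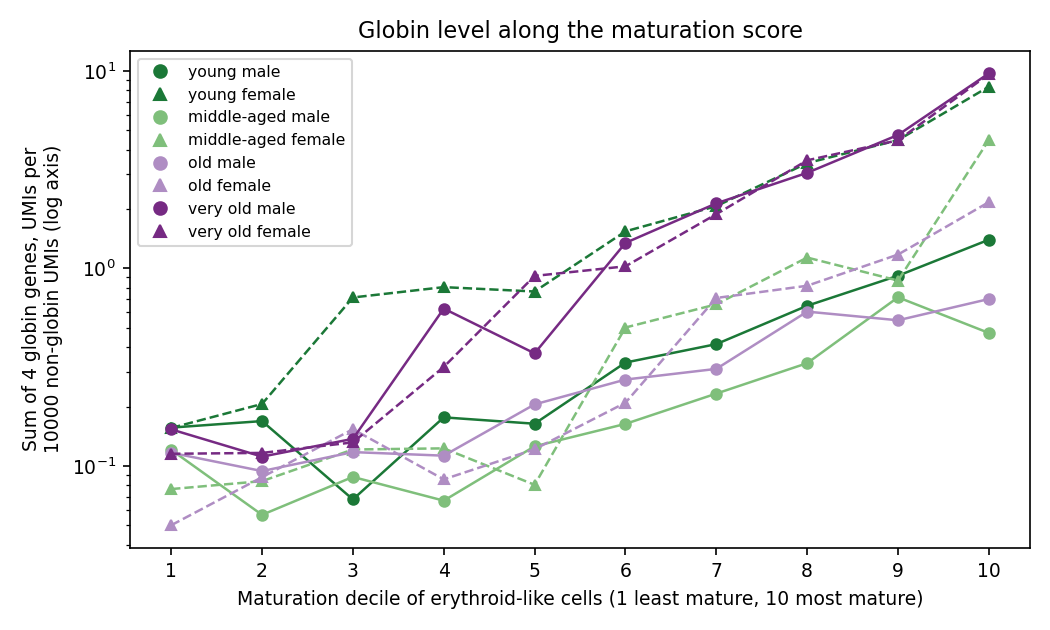
Summed level of the 4 globin genes along deciles of the erythroid maturation score, 1 line per mouse, on a log axis of UMIs per 10000 non-globin UMIs. Mice start between 0.0501 and 0.156, and in the most mature decile the young female and both very old mice reach 8.32 to 9.72 where the others reach 0.471 to 4.47.

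In sums over mice the beta gene Hbb-bt led in the least mature decile, where globin was sparse. Its level there was 0.0617, against 0.0283 for Hbb-bs, 0.0141 for Hba-a1 and 0.00967 for Hba-a2, and the alpha to beta ratio was 0.264. These values rest on 153 globin UMIs in 1046 cells, 83 of them Hbb-bt and 32 alpha. In the middle-aged female Hbb-bt and Hbb-bs held 9 each. The summed level, 0.114, was below that of HSC-like (0.407) and lymphoid-primed-like cells (0.162), where Hbb-bt also led. How much of it was free RNA was not tested. In the first 2 deciles the ratio was below 1 in 8 of 8 mice. In the third decile it was 1.07 over all mice, but 0.591 without the young female, with 6 of the other 7 mice below 1, and in the fourth 1.05 and 0.678. From the fifth decile on mice lay on either side of 1, and in the most mature decile the ratio was 0.848 over all mice and 0.729 without the young female. There 3 of 8 mice lay below 1, the middle-aged female (0.870) and both very old mice (0.619 in the male and 0.857 in the female), which with the young female held most of the UMIs. From the fifth to the last decile the level summed over mice climbed 33.0-fold for Hbb-bs, 18.3-fold for Hba-a1, 16.3-fold for Hbb-bt and 16.0-fold for Hba-a2. Hbb-bs climbed most in 4 of 8 mice, namely the young female, the old female and both very old mice, and another gene did in the other 4.

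The maturity of the erythroid-like cells differed between mice along the same division as their globin. The most mature of 3 bins held 49.2% of scored cells in the young female, 59.2% in the very old male and 54.3% in the very old female, against 28.2% in the young male, 18.4% and 16.6% in the middle-aged and 20.5% and 20.3% in the old male and female. Within that bin the division remained, with levels of 5.25 in the young female, 6.01 in the very old male and 5.78 in the very old female. The level there was 0.903 in the young male, 0.460 and 1.76 in the middle-aged and 0.570 and 1.11 in the old male and female. In the least mature bin the young female was at 0.417 and the other mice, the very old among them, at 0.0894 to 0.157. Median depth in the most mature bin was 27450 UMIs in the very old female, 36815 in the young female and 37871 in the very old male, and 28048 to 46439 in the low mice.

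Within these bins the comparison of older with young mice called 0 of 4 members by edgeR and by DESeq2. In the least mature bin 3 of 4 members had an unadjusted p under 0.05, beside 701 of 10836 genes. There edgeR called 0.148% of genes and DESeq2 6 genes. In the middle bin 1 of 4 had one, beside 758 of 11223 genes, with 0.0267% called by edgeR and 6 genes by DESeq2. In the most mature bin 0 of 4 had one, beside 0% called, 788 genes at an unadjusted p under 0.05 and 6 genes called by DESeq2.

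Alpha and beta UMIs were of similar number in erythroid-like cells, and summed over all these cells their ratio separated the 4 older mice from the 4 younger ones. The ratio of alpha to beta UMIs was 1.24 in the young male and 1.31 in the young female, 1.14 and 1.04 in the middle-aged male and female, 0.583 and 0.745 in the old, and 0.702 and 0.878 in the very old. These sums did not overlap, with older mice below 1 and young and middle-aged mice above it. They did not overlap either in the most mature of 3 bins of cells (older mice 0.642 to 0.928, the rest 1.03 to 1.43) or in the latest erythroid-like cluster (0.697 to 0.881 and 1.14 to 1.47). They did overlap in the least mature bin. There the very old male (0.667) and female (0.605) lay above the young male (0.341) and the middle-aged male (0.487) and female (0.447). Overlap was also seen in the most mature decile, where the old male (1.45, from 71 globin UMIs in 21 cells) and old female (1.03) lay above 1 and the middle-aged female below it. The separation was not seen in cells with fewer than 10 globin UMIs, examined after the values were seen, where the ratio was 1.13 and 2.002 in the young male and female, 1.19 and 1.0 in the middle-aged, 0.553 and 0.990 in the old and 1.22 and 1.32 in the very old, a difference of -0.63 (log2, older minus young, exact permutation p = 0.4). On the log2 scale young mice averaged 0.35 ± 0.06 (SD, n = 2) and older mice -0.48 ± 0.24 (SD, n = 4), a difference of -0.82, or 0.566-fold. The exact two-sided permutation test gave p = 0.0667, the smallest that 2 against 4 mice allow, so it cannot pass 0.05. Dividing each gene by its transcript length put the ratio at 0.597 to 0.886 in the older mice and 1.06 to 1.32 in the others.

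Over all 8 mice the log2 ratio was negatively correlated with age in weeks (Pearson r = -0.84, exact permutation p = 0.0129, adjusted p = 0.0356 over 4 coefficients, and Spearman rho = -0.80, p = 0.0226, adjusted p = 0.0356). The fall was not steady, as the ratio was higher in the very old male (0.702) and female (0.878) than in the old male (0.583) and female (0.745). Without the very old mice, whose libraries form another series, r was -0.90 (exact permutation p = 0.0222, n = 6). Without the young mice, the pair farthest from the median age, r was -0.67 (exact permutation p = 0.161, n = 6), which did not pass the threshold with 6 mice in place of 8. The young female and the very old mice were all high in globin level and stood on opposite sides of 1 in this ratio.

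The ratio also changed with how much globin a cell held. Over all mice it was 0.961 in erythroid-like cells with 1 to 2 globin UMIs, 1.49 with 3 to 9, 1.36 with 10 to 29, 0.895 with 30 to 99 and 0.577 with 100 or more. Those richest cells numbered 123, of which 52 were from the very old male, 37 from the very old female, 32 from the young female and 2 from the middle-aged female. At equal globin content the young female lay above both very old mice in all 5 bands, for instance at 2.20 against 1.32 (male) and 1.41 (female) with 3 to 9 UMIs and at 0.792 against 0.459 and 0.584 with 100 or more. The young male, at 0.733 with 1 to 2 UMIs, lay below the old female (0.867) and both very old mice (0.951 and 1.04), and with 10 to 29 UMIs was at 1.34 against 1.45 in the old female. With the cells of 100 or more globin UMIs left out, an alternative added after the values were seen, the older mice were at 0.583 to 1.004 and the young at 1.24 and 1.51.

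**Figure D3:**
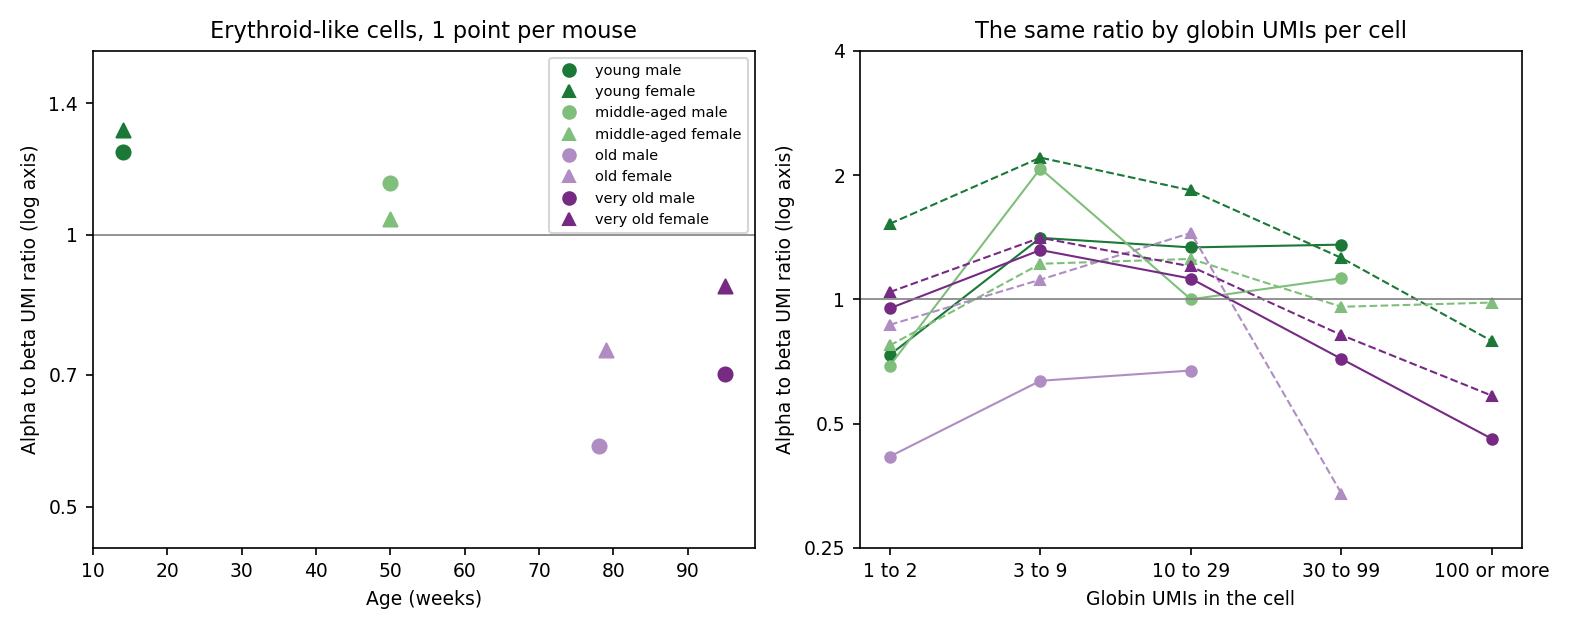
Ratio of alpha to beta UMIs in erythroid-like cells on log axes, per mouse against age in weeks (left) and by globin UMIs per cell (right, points with at least 10 alpha and 10 beta UMIs). On the left the older mice lie between 0.583 and 0.878 and the rest between 1.04 and 1.31. On the right the young female lies above both very old mice in each band, and the young male lies below them with 1 to 2 UMIs.

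Outside the erythroid class globin was sparse and, in class sums over mice, held less alpha for its beta than in erythroid-like cells. Per 100 cells, erythroid-like cells held 619 globin UMIs, HSC-like cells 38.7, megakaryocyte-like cells 27.1, lymphoid-primed-like cells 18.4, basophil and mast-like cells 9.95, granulocyte progenitor-like cells 9.17, monocyte progenitor-like cells 8.36, dendritic-like cells 8.27 and B lymphoid-like cells 4.39. Mature neutrophil-like cells held 925, but 3053 of their 3202 globin UMIs came from 1 barcode of the young female. Unnamed cells held 33.8, and 20.9 without the old male, whose library holds 1 barcode with 2422 globin UMIs. With each cell thinned to 2000 UMIs, a globin UMI was found in 16.3% of erythroid-like, 5.44% of HSC-like, 1.30% of granulocyte progenitor-like and 0.720% of monocyte progenitor-like cells. These shares pool the mice: the median over mice was 5.29% in erythroid-like and 5.34% in HSC-like cells, and the HSC-like share was the higher in 3 of 8 mice. The erythroid-like class held 20.9% of all globin UMIs in the library of the old male and 96.2% in that of the very old male, with the other libraries between. In the old male the single unnamed barcode given above held 65.5% of the globin UMIs. How much of the globin outside the erythroid-like class was free RNA was not tested.

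Alpha RNA was lower in the stem and progenitor classes than in erythroid-like cells. Its median level over mice was 0.285 in erythroid-like cells, 0.0461 in megakaryocyte-like, 0.0284 in HSC-like, 0.00801 in granulocyte progenitor-like and 0.00567 in monocyte progenitor-like cells. Summed over mice, the alpha to beta ratio was 0.923 in erythroid-like cells and 0.0894 in HSC-like, 0.163 in lymphoid-primed-like, 0.302 in granulocyte progenitor-like, 0.311 in megakaryocyte-like and 0.590 in monocyte progenitor-like cells. Without the young female it was 0.095 in lymphoid-primed-like, 0.192 in granulocyte progenitor-like and 0.394 in monocyte progenitor-like cells. Summed over mice, basophil and mast-like cells stood at 0.611 and dendritic-like cells at 0.704, from 203 and 46 globin UMIs. The latest cluster held 91.8% of the erythroid-like globin UMIs, at a ratio of 0.928. The erythroid-like cluster with the lowest median maturation score stood at 0.563, within the range of the other classes. In mature neutrophil-like cells, led by the single young female barcode given above, alpha summed over mice stood at 3.84 per 10000 other UMIs.

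HSC-like cells carried mostly Hbb-bt. Over all mice they held 2188 Hbb-bt UMIs, 306 of Hbb-bs, 143 of Hba-a1 and 80 of Hba-a2. Hbb-bt made up 58.6% (very old male) to 93.0% (middle-aged male) of the globin in these cells, and 23.3% to 49.7% in erythroid-like cells. Its share in lymphoid-primed-like (47.9% to 93.8%) and granulocyte progenitor-like cells (43.6% to 87.1%) overlapped that in HSC-like cells. Its level in HSC-like cells was 0.321 in the young male and 0.562 in the young female, 0.319 and 0.373 in the middle-aged, 0.167 and 0.383 in the old, and 0.263 and 0.303 in the very old male and female. In granulocyte progenitor-like cells it was 0.0122 to 0.0574, so these 2 classes did not overlap. In lymphoid-primed-like cells it was 0.0478 to 0.264, which overlapped the HSC-like range, and these classes were not compared by a test. HSC-like cells were higher than granulocyte progenitor-like cells in 8 of 8 mice, by 10.1-fold on average (log2 difference 3.34 ± 0.52, SD over mice), and higher than monocyte progenitor-like cells in 8 of 8, by 26.1-fold. These folds are per 10000 UMIs, and HSC-like cells are shallower: per 100 cells and summed over mice Hbb-bt stood at 31.1 UMIs in HSC-like, 5.32 in granulocyte progenitor-like and 3.33 in monocyte progenitor-like cells, again with no overlap between mice of the HSC-like (14.1 to 58.2) and the granulocyte and monocyte progenitor-like classes (1.95 to 9.04 and 1.30 to 5.84). The exact sign-flip permutation test over mice gave p = 0.00781 for both, the smallest that 8 mice allow (adjusted p = 0.0102 over 13 comparisons of classes, chosen after the values were seen).

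The mix of globin genes also differed between classes of the same mice. The alpha to beta ratio was lower than in erythroid-like cells in 8 of 8 mice for HSC-like cells (mean log2 difference -3.72 ± 1.12, SD), granulocyte progenitor-like cells (-2.27 ± 1.10), monocyte progenitor-like cells (-1.49 ± 1.37) and megakaryocyte-like cells (-1.79 ± 0.64), each with an exact permutation p of 0.00781 and an adjusted p of 0.0102. The ratio of Hbb-bs to Hbb-bt was lower in HSC-like than in erythroid-like cells in 8 of 8 mice, by a mean log2 difference of -2.48 ± 0.95 (SD, exact permutation p = 0.00781, adjusted p = 0.0102). The Hbb-bt level itself was higher in HSC-like than in erythroid-like cells in the 5 mice with low erythroid globin and lower in the other 3, and did not pass the test (0.24 ± 1.59, exact permutation p = 0.672, adjusted p = 0.672).

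Hbb-bt was found in 839 of 7027 HSC-like cells (11.9%) at a median depth of 8852 UMIs, against 2.73% of monocyte progenitor-like cells at 23290 UMIs. Of the 839 cells, 514 held 1 UMI and 105 held 5 or more, the most being 36. Alpha UMIs were found in 3.69% of the HSC-like cells with Hbb-bt and in 2.36% of those without, at median depths of 10087 and 8709 UMIs. The erythroid marker list stood at 8.23 ± 1.58 UMIs per 10000 (SD, n = 8) in cells with Hbb-bt and 8.80 ± 1.198 in those without, against 84.4 ± 12.3 in erythroid-like cells. The HSC marker list stood at 10.6 ± 2.03 with Hbb-bt, 11.5 ± 2.50 without, and 0.833 ± 0.0773 in erythroid-like cells. Both clusters of the class held Hbb-bt, at 0.287 and 0.416. Leaving out cells with 10 or more globin UMIs gave a mean log2 difference from granulocyte progenitor-like cells of 2.92 ± 0.36 (SD), again in 8 of 8 mice.

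**Figure D4:**
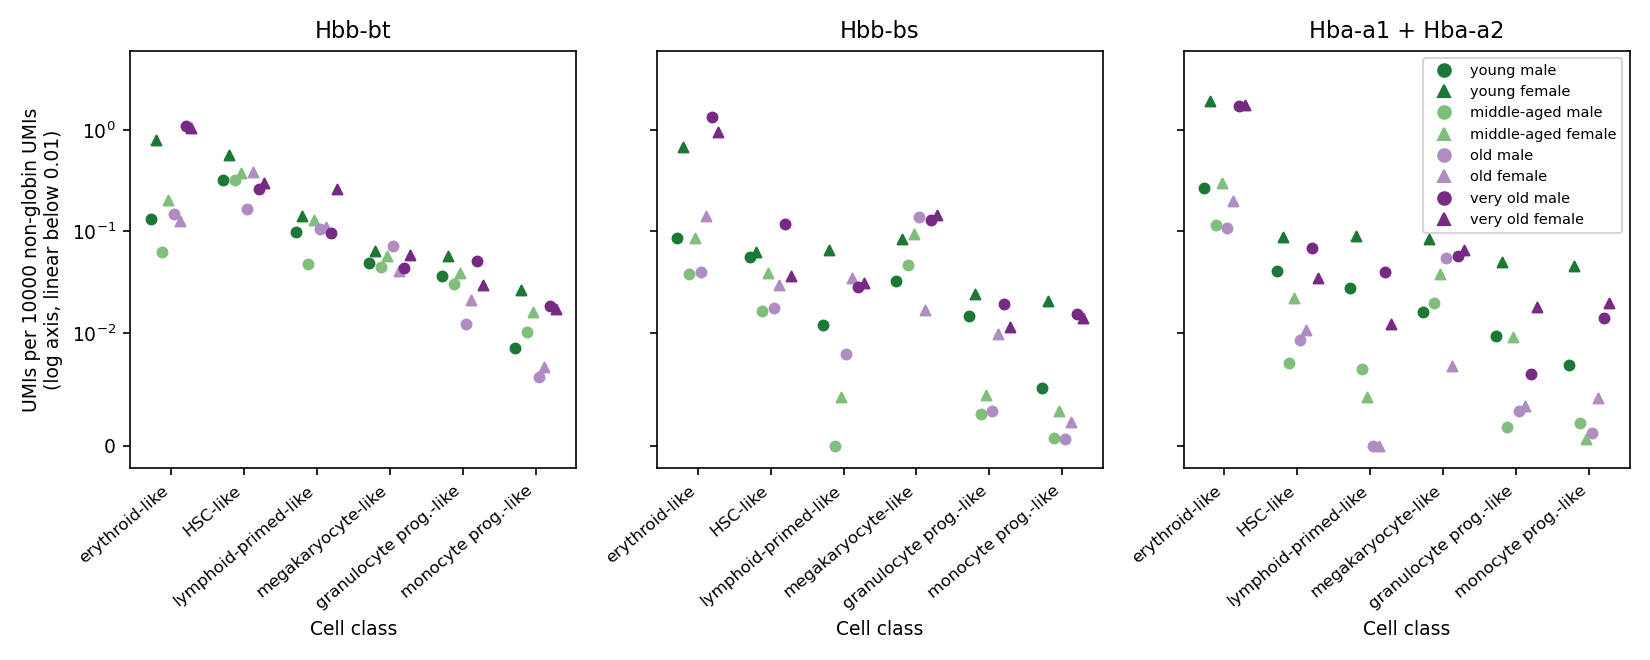
Level of Hbb-bt, of Hbb-bs and of both alpha genes by cell class, 1 point per mouse, in UMIs per 10000 non-globin UMIs on an axis that is logarithmic above 0.01 and linear below. For Hbb-bt the HSC-like cells lie at 0.167 to 0.562, within the range of erythroid-like cells, while for the alpha genes they lie below all erythroid-like points.

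Megakaryocyte-like cells held more of the other beta gene in 6 of 8 mice. Over all mice they held 429 Hbb-bs UMIs and 271 of Hbb-bt, with 125 of Hba-a1 and 93 of Hba-a2. Few cells carried much of it, as 13 cells held 401 of the 918 globin UMIs, and Hbb-bt was found in more cells (5.49%) than Hbb-bs (4.78%). Hbb-bt led in the young male (30 against 20 UMIs) and the old female (29 against 12). The ratio of Hbb-bs to Hbb-bt was higher there than in HSC-like cells in 8 of 8 mice (mean log2 difference 3.41 ± 0.93, SD, exact permutation p = 0.00781, adjusted p = 0.0102). Against erythroid-like cells it was higher in 7 of 8 mice and did not pass (0.94 ± 1.27, exact permutation p = 0.0781, adjusted p = 0.0846). Lymphoid-primed-like cells held 212 Hbb-bt, 39 Hbb-bs, 28 Hba-a1 and 13 Hba-a2 UMIs, a mix led by Hbb-bt.

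Age was compared in the same way in these classes. In granulocyte progenitor-like cells the estimates (log2, older minus young) were -1.73 ± 0.43 (SE) for Hba-a1, -2.78 ± 0.59 for Hba-a2, -0.98 ± 0.37 for Hbb-bs and -0.85 ± 0.26 for Hbb-bt. The edgeR test called 0 of 4 (adjusted p 0.168 to 0.787) beside 0.074% of genes, with 4 of 4 at an unadjusted p under 0.05 beside 672 genes. DESeq2 called 0 of 4 beside 10 genes. Leaving out 1 mouse at a time moved Hba-a1 to between -2.18 and -0.44 and Hba-a2 to between -4.77 and -1.91. These rest on few molecules, 2.92 to 20.7 globin UMIs per 100 cells of a mouse. In HSC-like cells, a comparison added after the values were seen, the estimates were -0.58 ± 0.18 for Hbb-bt, -0.41 ± 0.46 for Hbb-bs, -1.24 ± 0.55 for Hba-a1 and -1.60 ± 0.50 for Hba-a2. The alpha estimates were unsteady: Hba-a1 lay between -2.12 and -0.21 leaving out 1 mouse, at -2.38 for the old mice alone and -0.10 for the very old, and Hba-a2 at -2.95 and -0.26. There edgeR called 0 of 4 (adjusted p 0.0945 to 0.652) beside 5.88% of genes, with 3 of 4 at an unadjusted p under 0.05 beside 2637 of 12333 genes. DESeq2 called 0 of 4 beside 511 genes (4.14%).

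Globin in granulocyte progenitor-like cells was higher in libraries with a higher globin share, which comes from the same libraries. Over 8 mice Pearson's r was 0.72 (exact permutation p = 0.0267, adjusted p = 0.0356) and Spearman's rho 0.62 (exact permutation p = 0.115, adjusted p = 0.115). Without the young female and the very old male, the mice farthest from the median share, r was 0.42 (exact permutation p = 0.419, n = 6), so the relation rests on those mice. Without the very old mice r was 0.91 (exact permutation p = 0.106, n = 6) and rho 0.31 (exact permutation p = 0.564). Among these 6 the young female had a share of 1.95 per 10000 UMIs, against 0.146 to 0.390 in the others. The share of 0.390 is that of the old male, where 1 barcode held 65.5% of the globin UMIs.

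Genes that work with globin were followed by 4 lists, and the examples here were named after their values were seen. From the least to the most mature decile, the heme synthesis list held Slc25a39, a mitochondrial carrier, at 0.925-fold, Tmem14c, a mitochondrial membrane protein, at 4.64-fold and Alas2, which stayed near 0, at 28.4-fold. Of the iron genes, Tfrc, the transferrin receptor, was at 6.93-fold and Ireb2, an iron regulatory protein, at 0.841-fold. Among regulators Klf1, an activator of adult beta globin, was at 1.997-fold, Gata1 at 1.30-fold and Myb, a progenitor factor, at 0.220-fold, though Klf1 and Myb are part of the score. Of the membrane genes outside the score Gypc, a glycophorin, had the smallest fold, at 1.31. In all, 11 of 12 heme synthesis, 8 of 9 iron, 7 of 14 regulator and 13 of 13 membrane genes were higher in the most mature than in the least mature decile, some of them part of the score. These folds are of sums over all mice, with no test.

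Between older and young mice edgeR called 0 of the 12 heme synthesis, 9 iron, 14 regulator and 13 membrane genes in erythroid-like cells, as did DESeq2. Of all 12588 genes tested edgeR called 1 and DESeq2 10. In the lists 0, 0, 1 and 1 genes had an unadjusted p under 0.05, beside 680 of all genes. Median differences were -0.13, -0.02, -0.02 and -0.10 (log2) beside -0.01 over all genes tested. Between middle-aged and young mice edgeR again called 0 in each list, with 11, 5, 3 and 12 at an unadjusted p under 0.05, beside 2113 of all 12588 genes, and DESeq2 called 7, 1, 1 and 7, beside 325 genes. Medians were -0.58 for heme synthesis, -0.27 for iron, -0.15 for regulators and -0.62 for membrane genes beside 0.00 over all genes.

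Over 26 clusters, the genes whose level was most like that of the summed globins, of 11411 ranked, were Hebp1, a heme-binding protein (r = 0.80), Sec14l2 (0.80), Fbxo10 (0.78), Ampd3 (0.77), Arhgap23 (0.76), Mfhas1 (0.75), Syngr1 (0.75), Gm11837 (0.74), Dnaja4 (0.73) and Gab1 (0.73). These r are a description across clusters that share libraries.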

How the data were processed

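Single-cell 3′ libraries of 8 mice were analysed from the UMI counts per gene and barcode that the authors deposited, which they made with Cell Ranger on mm10, and the Cell Ranger release is not settled by the sources used here. Members and gene lists were chosen with earlier results of these data known. Barcodes with fewer than 200 detected genes (329) were removed. Cells were clustered on 30 principal components of 2000 variable genes, without haemoglobin and sex-linked genes, with a Harmony correction over libraries written in numpy 2.4.6 and Leiden clustering (leidenalg 0.10.2, resolution 0.8), and a cluster was named from at least 3 markers of a fixed list among its 50 leading genes. Doublets called by Scrublet, or the top expected share where its call failed (1.15% to 6.38% of a library), were kept and left out as an alternative.

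UMIs were summed per mouse and class and tested with edgeR 4.0.16 (quasi-likelihood, age group and sex, all 8 mice, Benjamini-Hochberg over all genes tested), with DESeq2 1.42.0 as an alternative (R 4.3.3). Ratios, correlations and differences between classes were tested over mice with exact permutation tests (scipy 1.17.1). Named are the members, the other globin genes, the 10 genes most like the summed globins and called genes of the lists, while other list genes in the text were chosen after their values were seen. The edgeR step was tested on simulated data. Of the gene identifiers, 32158 of 32285 were found in GENCODE vM21. Sequences are from RefSeq.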

Additional observations from a re-analysis of the deposited data

Results flagged for a closer look

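Among barcodes outside the erythroid-like class, 3 stood out by their globin UMIs, and in the old male 1 of them held most of the globin of the library. A barcode of the young female in a mature neutrophil-like cluster held 3053 globin UMIs of 7678 in all (39.8%), with an alpha to beta ratio of 0.398, and 10.4% of the globin UMIs of that library. A barcode of the old male in an unnamed cluster held 2422 of 2757 (87.8%), which was 65.5% of the globin UMIs of that library, and it was marked as a candidate doublet. An unnamed barcode of the young female held 399 of 797 (50.1%).

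Other haemoglobin genes gave UMIs outside the 4 members. Over all libraries Hbb-y, an embryonic beta gene, had 12 UMIs, Hba-x, an embryonic alpha gene, 14, all of these in erythroid-like cells, Hbq1a 14, of which 0 were in erythroid-like cells, and Hbq1b 45, of which 38 were. Hbb-bh1 and Hbb-bh2 had 0.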

How the results depend on the processing

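The lower alpha to beta ratio of older mice kept its direction under all 18 alternatives (-0.95 to -0.43, log2) and without cells of 10 or more globin UMIs, added after seeing the data (-0.63). In that alternative the groups overlapped, and the exact permutation p = 0.4 was above the smallest possible. The same held with the mean over globin-positive cells (-0.43, exact permutation p = 0.267). With the mean of the 3 maturation bins (-0.86, exact permutation p = 0.133) the p was also above the smallest possible. There the groups did not overlap, with older mice at 0.385 to 0.793 and the young at 0.806 and 1.36. The higher Hbb-bt of HSC-like than of granulocyte progenitor-like cells kept its direction and its side of the threshold under all 13 (2.92 to 5.001). For older against young erythroid-like cells 0 members were called under all 20 alternatives. At most 0.342% of all genes were called in these fits (with very old mice only), so a count of 0 was not particular to the members. Directions turned, and the cause was not tested. Without the sex term Hbb-bs was at -0.29 and Hbb-bt at -0.28. With age as a number, per 52 weeks, Hba-a1 was at 0.56 and Hba-a2 at 0.67. Without Harmony Hbb-bs was at -0.058. With old mice only Hbb-bs was at -1.98 and Hbb-bt at -1.48, and with very old mice only Hba-a1 was at 1.18 and Hba-a2 at 1.37. Leaving out 1 mouse at a time gave -1.63 to 0.67 for Hba-a1, -1.63 to 0.75 for Hba-a2, -0.90 to 1.72 for Hbb-bs and -0.88 to 1.44 for Hbb-bt. In HSC-like cells Hbb-bs was at 0.15 with age as a number, 0.49 with very old mice only and -1.09 to 0.049 leaving out 1 mouse.

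Counts of members called moved as follows, given beside the share of all genes called in the same fit. In erythroid-like cells without a filter on low counts, 4 were called for old mice (2.12%) and 4 for very old mice (4.53%), each against the young. For middle-aged mice 4 were called without a filter on low counts (3.71% of genes), 2 in the latest cluster (chosen after seeing the data, 3.39%) and 0 to 4 leaving out 1 mouse, with 4 without the young male (8.60%) and 2 without either very old mouse (0.631% and 0.623%). In granulocyte progenitor-like cells 3 were called without the filter (0.571%), 1 without Harmony (0.338%) and 0 to 1 leaving out 1 mouse (1 without the very old male, 0.248%). In HSC-like cells, a set of alternatives also added after seeing the data, 2 were called without the filter (7.36%), 1 with old mice only (4.35%) and 0 to 1 leaving out 1 mouse (1 without the old female, 4.57%, or the very old male, 2.71%). Leaving out 1 mouse gave 0 to 2 in the least mature bin (2 without the young male, 0.0448%, and 1 without the very old male, 0.126%), 0 to 2 in the middle bin (2 without the young male, 0.0174%) and 0 to 1 in the most mature bin (1 without either very old mouse, 0.0189% and 0.0473%), where old mice only (0.568%) and very old mice only (2.32%) each gave 1. The correlation of globin outside the erythroid class with the library share was 0.51 in HSC-like cells (exact permutation p = 0.236), and 0.69 to 0.77 leaving out 1 mouse, falling short of the threshold without the young female, the middle-aged male or the old female. The labels carry no replicate numbers, so mice could be matched across ages by sex only. Sex is a term of the edgeR fit, while the permutation tests across ages took no such term. With 1 mouse per age and sex, differences of the size seen between mice of 1 age limit every comparison.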
